A study of Ptychodera flava with 8 samples.

Results

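In early embryos of the acorn worm Ptychodera flava, 2489 of 82811 accessible regions were transient around mid gastrula: they held an ATAC-seq peak at mid gastrula and none at early blastula or late gastrula. They were found by merging the 4 deposited peak lists, 1 per stage, wherever peaks overlapped by at least 1 bp, and by reading which stages had a peak in each merged region. Of the 2489 regions, 1805 had a peak at mid gastrula alone and 684 had one at early and mid gastrula. They made up 3.01% of all merged regions and 5.94% of the 41920 regions with a mid gastrula peak. The word transient refers to the lists: a region without a peak at a stage may be accessible below that list's threshold, and closed chromatin and a missed weak peak cannot be told apart.

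Ptychodera flava is a hemichordate, an invertebrate deuterostome. Whole embryos, with no allele or treatment named, were profiled at early blastula (a hollow ball of cells), and at early, mid and late gastrula, the successive steps of the infolding that makes the gut. The libraries numbered 8, 2 per stage, each from 75000 cells of whole animals. The lists give 1 value per peak and none per library, so no difference below has a replicate check, the sequencing depth is unknown, and no p-value was computed.

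In ATAC-seq the Tn5 transposase inserts adapters into DNA that is not wrapped in nucleosomes, and a peak marks such an open stretch. Open stretches away from gene starts are often enhancers, the switches through which transcription factors set cell fates, and in embryos many enhancers are open for a short period only. Gastrulation, when the germ layers separate, is a period in which many regulatory regions of animal genomes open or close. Whole embryos mix all cell types, so a region open in few cells and a region weakly open in all cells cannot be told apart. Genes and DNA sequence were not used here, because no source used here names the build of the coordinates.

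A missing late gastrula peak was less frequent where an early gastrula peak was present. Among mid gastrula regions with neither an early blastula nor an early gastrula peak, 1805 of 7801 had no late gastrula peak, which is 23.1% (Wilson 95% interval 22.2 to 24.1). Among those with early gastrula and without early blastula the share was 9.72% (684 of 7038, interval 9.05 to 10.4). Where early blastula was present, it was 5.48% in all, 4.38% with an early gastrula peak (1104 of 25198) and 20.1% without one (379 of 1883). Over all mid gastrula regions without early blastula it was 16.8%. Over all mid gastrula regions 9.48% had no late gastrula peak and 35.4% no early blastula peak. An early gastrula peak was found in 27.5% of the transient regions (25.8 to 29.3), against 76.9% of all mid gastrula regions (76.5 to 77.3). All these shares follow from the same lists as the definition, and they describe it without supporting it.

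The number of transient regions rested on the lengths and thresholds of the lists. The late gastrula list was the longest, with 64713 peaks, and the mid gastrula list the shortest, with 43317. When all lists were shortened to 43317 peaks, 3873 regions of mid gastrula alone and 1393 of early and mid gastrula resulted. When mid gastrula peaks were required to have an irreproducible discovery rate (IDR) of at most 0.01, with the other lists whole, 75 and 49 remained. The IDR estimates, from the ranks of peaks in the replicates, how likely a peak is not to be reproducible.

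The transient peaks ranked low in the mid gastrula list as deposited, and lower by significance than by enrichment. Enrichment is the authors' fold over background for each peak, and a percentile of 100 would be the top of the list. For regions of mid gastrula alone the enrichment ranged from 1.90 to 20.1 with a median of 7.21, a median percentile of 33.3. For regions of early and mid gastrula it ranged from 2.38 to 18.5 with a median of 7.62, a median percentile of 38.9. Mid gastrula peaks in regions of mid and late gastrula, which kept a peak at late gastrula, had a median percentile of 34.1, and those in regions of all 4 stages 60.3. By −log10 p, the significance the authors gave each peak, the medians were lower and the patterns lay further apart. They stood at the percentiles 11.5 for mid gastrula alone and 21.0 for early and mid gastrula, against 25.7 for mid and late gastrula and 65.2 for all 4 stages. The order by enrichment turned with the threshold. With an IDR of at most 0.01 in all lists the median percentiles were 44.8 for mid gastrula alone and 43.0 for early and mid gastrula, against 41.2 for mid and late gastrula, 43.1 for early, mid and late gastrula and 55.2 for all 4 stages. Those percentiles were ranked anew within the shortened list. With 0.01 in the mid gastrula list and the others whole, percentiles were kept from the full list, so these settings do not share a scale. In the latter the medians were 25.03 for mid gastrula alone and 75.02 for early and mid gastrula, from 75 and 49 regions. The same comparison patterns had 64.2, 61.9 and 71.7. Passing a list's threshold is part of the definition, so these ranks are a description only.

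**Figure D1:**
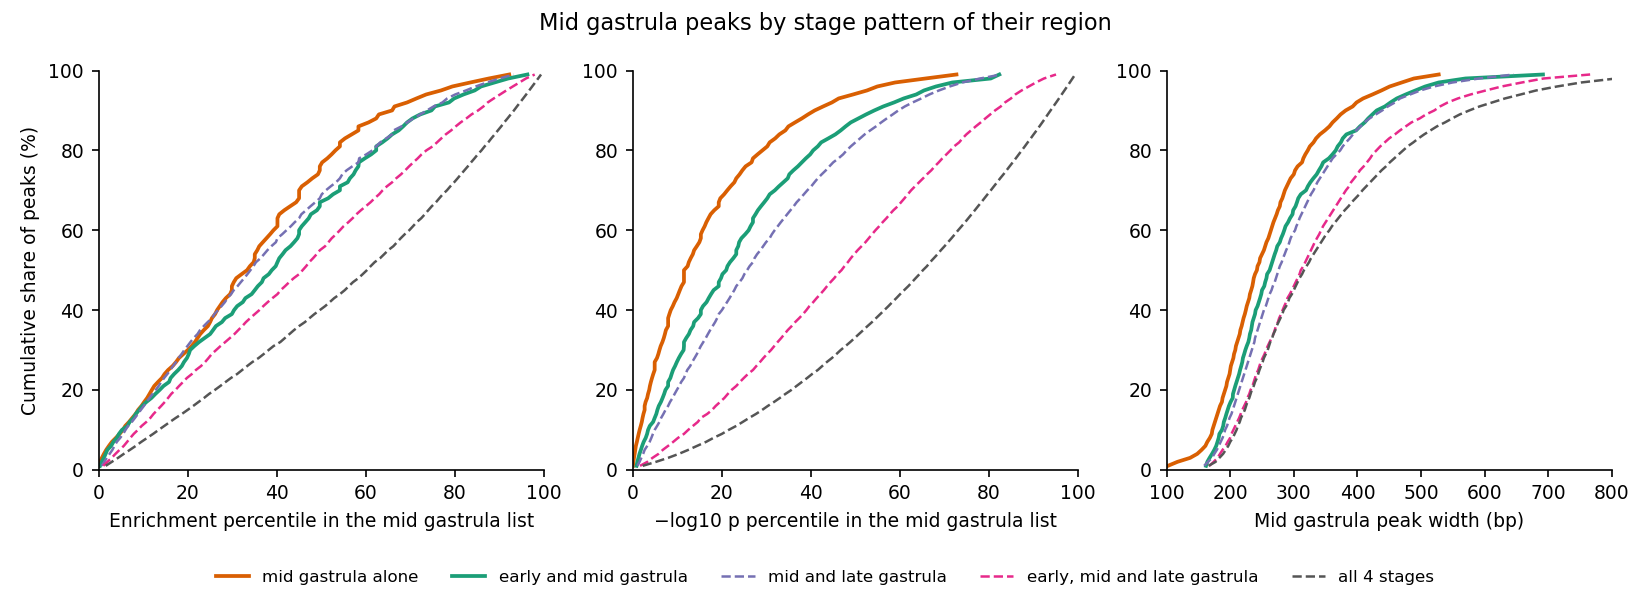
Cumulative share of mid gastrula peaks (vertical axis, %) by enrichment percentile, −log10 p percentile and width in bp, for the stage pattern of the region; solid lines are the transient patterns, dashed lines patterns with a late gastrula peak. By −log10 p the line of mid gastrula alone lies farthest to the left with a median percentile of 11.5, and that of all 4 stages farthest to the right with 65.2.

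Transient peaks were nonetheless found at every level of enrichment. The mid gastrula list was cut into 10 bins of near equal size, bin 1 being the lowest. By enrichment 9.56% of the peaks in bin 1 were transient, between 7.48% and 9.11% in bins 2 to 5, and 0.928% in bin 10. By −log10 p the shares were 22.4% in bin 1, 13.8% in bin 2 and 0.115% in bin 10. In all, 417 of the 1805 peaks of mid gastrula alone and 225 of the 687 mid gastrula peaks in regions of early and mid gastrula had an enrichment percentile of 50 or more. At −log10 p percentiles of 50 or more they numbered 105 and 86.

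These significant transient peaks had lower scores than peaks of similar significance in the compared patterns with a late gastrula peak. The score is the authors' capped transform of the IDR, with 1000 for the most reproducible peaks. Of the 105 peaks of mid gastrula alone with a −log10 p percentile of 50 or more, 4 had the maximum score (3.81%, 1.49 to 9.39), and their median score was 647. Of the 86 of early and mid gastrula, 14 had it (16.3%, 9.95 to 25.5), with a median of 796.5. Among peaks of mid and late gastrula in the same range 439 of 1085 had it (40.5%, 37.6 to 43.4), and among those of all 4 stages 13772 of 16962 (81.2%, 80.6 to 81.8). Regions of early blastula, early and mid gastrula, which also lack a late gastrula peak, had 48 of 203 (23.6%, 18.3 to 29.9), an interval that overlaps that of early and mid gastrula. The transient peaks stood lower within this range, so the shares were also read bin by bin. In bin 7 by −log10 p, 1 of 27 peaks of mid gastrula alone (3.70%, 0.657 to 18.3) and 4 of 28 of early and mid gastrula (14.3%, 5.70 to 31.5) had the maximum, against 12 of 65 of early blastula, early and mid gastrula (18.5%, 10.9 to 29.6), 159 of 322 of mid and late gastrula (49.4%, 44.0 to 54.8) and 2190 of 3050 of all 4 stages (71.8%, 70.2 to 73.4). How such a peak ranked in each replicate cannot be read from the lists.

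**Figure D2:**
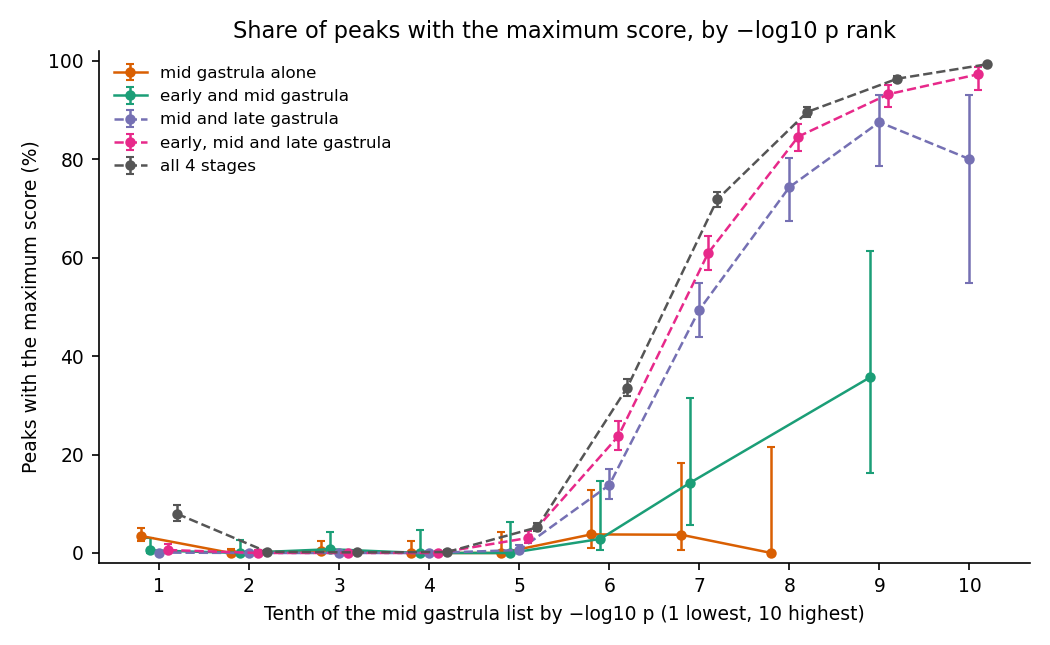
Share of mid gastrula peaks with the maximum score (vertical axis, %) in each of 10 bins of the list by −log10 p (horizontal axis), by stage pattern; bars are Wilson 95% intervals, and classes of fewer than 10 peaks are not drawn. In bin 7 3.70% of peaks of mid gastrula alone and 14.3% of those of early and mid gastrula have the maximum, against 49.4% for mid and late gastrula and 71.8% for all 4 stages.

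In the upper 50% of the early gastrula list by −log10 p, regions of early and mid gastrula also had the maximum score less often than the compared patterns with a late gastrula peak. Of their 157 early gastrula peaks with a −log10 p percentile of 50 or more in that list, 54 had it (34.4%, 27.4 to 42.1). The share was 24.1% for peaks of early gastrula alone (19.7 to 29.1), 67.9% for early blastula, early and mid gastrula, 56.9% for early, mid and late gastrula (54.9 to 58.8) and 85.5% for all 4 stages. In the mid gastrula list the share for early, mid and late gastrula was 64.4%. Bin by bin the early gastrula contrast with that pattern was less clear. In bin 6 of the early gastrula list it was 11.3% (5.58 to 21.5) for early and mid gastrula, against 21.7% (19.0 to 24.7). In bin 7 it was 42.4% (27.2 to 59.2) against 58.1% (54.3 to 61.8). The intervals overlapped in both bins.

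The transient peaks with the maximum score fell into a faint and a strong set. The maximum was reached by 48 of them, 32 of mid gastrula alone and 16 of early and mid gastrula. Of the 48, 28 had a −log10 p percentile under 10, and 27 of these belonged to mid gastrula alone. All 28 lay within 200 bp of a region of another pattern, at a median distance of 21 bp, and they were faint and short, with a median enrichment of 2.99 and a median width of 120.5 bp. They were spread over 18 scaffolds. A maximum score at a low −log10 p was not limited to transient peaks. In bin 1 by −log10 p it was reached by 27 of 781 peaks of mid gastrula alone (3.46%, 2.39 to 4.98). For early and mid gastrula it was 1 of 187. The counts were 78 of 980 for all 4 stages (7.96%, 6.42 to 9.82) and 1 of 1211 for mid and late gastrula (0.0826%). Another 18 had a −log10 p percentile of 50 or more, with a median enrichment of 12.3 and a median width of 311 bp. Of these 18, 14 belonged to early and mid gastrula, and 2 lay within 500 bp of another pattern.

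Transient peaks were short. The peaks of mid gastrula alone measured 100 to 685 bp with a median of 242 bp, and the mid gastrula peaks of early and mid gastrula 134 to 1187 bp with a median of 262 bp. The median was 276 bp in regions of mid and late gastrula, 316 bp in regions of all 4 stages and 299 bp in the whole list. Short peaks were not limited to transient regions: the median was 243 bp in regions of early blastula, mid and late gastrula and 238 bp in regions of early blastula and mid gastrula. Peaks over 500 bp made up 1.72% of the first group (1.21 to 2.43) and 4.51% of the second (3.20 to 6.33), against 12.6% of the whole list (12.3 to 12.9). Among peaks of similar −log10 p the order was different. Within bin 4 by −log10 p the median width was 273 bp for mid gastrula alone and 258.5 bp for early and mid gastrula, against 282 bp for mid and late gastrula and 254 bp for all 4 stages. In each of bins 1 to 6 both transient groups had a longer median than all 4 stages, and in bin 7 a shorter one. Against mid and late gastrula, mid gastrula alone had the shorter median in each of bins 1 to 7. Early and mid gastrula had the longer median in bins 1 and 3 and the shorter one in the others up to bin 7. Width also enters the overlap rule, since a long peak meets other peaks more easily.

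Where early and mid gastrula shared a region, the summits of the pair of peaks were mostly close together. Of the 684 regions, 677 held 1 peak of each stage, 3 held 2 mid gastrula peaks and 4 held 2 early gastrula peaks. In the 677 pairs the peaks overlap by the merging rule, so overlap itself is no result. The summits, the points of highest signal, were a median of 11 bp apart, and in 554 pairs (81.8%) they were within 50 bp. In 4.73% of pairs they were more than 100 bp apart, at most 842 bp. The median overlap was 85.9% of the pair's joint length. The same 2 stages had summits a median of 10 bp apart in regions of early, mid and late gastrula and 8 bp apart in regions of all 4 stages. In this respect the transient pairs did not stand out from regions that were kept.

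Within these pairs the peak more often ranked lower at mid gastrula than at early gastrula. The median enrichment percentile was 38.9 at mid gastrula and 41.7 at early gastrula. The mid gastrula percentile was the lower one in 409 of 677 pairs (60.4%), and the median difference, mid minus early, was -2.11 percentile points. By −log10 p it was lower in 430 pairs (63.5%), with a median difference of -6.32 points. Regions of all 4 stages showed the same direction to a lesser degree, with 53.1% of 22164 pairs lower at mid gastrula by enrichment and 59.8% by −log10 p, and median differences of -0.54 and -2.19 points. In regions of early, mid and late gastrula, the difference had the opposite sign: the mid gastrula percentile by enrichment was higher in 57.9% of pairs and the median difference was 2.17 points. In regions of early blastula, early and mid gastrula, which also lacked a late gastrula peak, the median difference was -9.82 points. Presence at the neighbouring stages was used to form these groups, so the contrast was not tested. Across the 677 regions the enrichment percentiles of the stages had a Spearman correlation of 0.76, against 0.88 across 22164 regions of all 4 stages. By −log10 p it was 0.43, against 0.83. These are correlations across regions of the same pair of lists, and regions are not independent replicates.

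**Figure D3:**
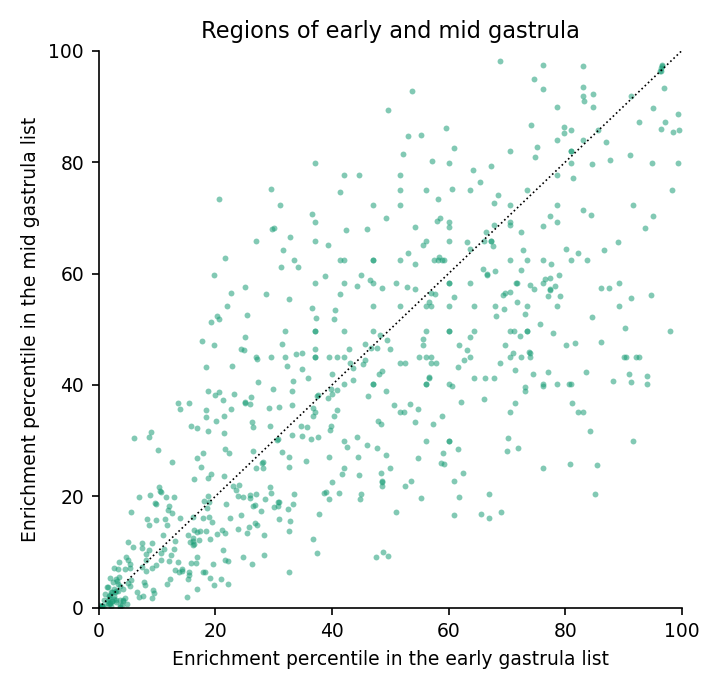
Enrichment percentile in the mid gastrula list (vertical axis) against that in the early gastrula list (horizontal axis) for the 677 regions of early and mid gastrula with 1 peak of each stage; each point is a region and the dotted line marks equal percentiles. More points, 409 of 677, lie below the line than above it.

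Transient regions had a more distant nearest region than the compared mid gastrula regions with a late gastrula peak. The nearest region of any pattern, measured between edges, was a median of 2341 bp from a region of mid gastrula alone and 2091 bp from one of early and mid gastrula. The medians were 1526 bp for mid and late gastrula, 1322 bp for early, mid and late gastrula and 779 bp for all 4 stages, but 2264 bp for early gastrula alone. Leaving out neighbours of the same pattern lengthens the distance most for the abundant patterns. A region of mid gastrula alone was a median of 2492.5 bp from the nearest region of another pattern, with the middle 50% between 563.5 and 7384.5 bp. For early and mid gastrula the median was 2229 bp, with the middle 50% between 520.5 and 7224.5 bp. The medians were 1857 bp for mid and late gastrula, 2568 bp for early gastrula alone and 2137 bp for all 4 stages. Within 50 kb to either side of a transient region there was a median of 10 other regions in both groups, against 13 around regions of mid and late gastrula and of all 4 stages and 11 around regions of early gastrula alone. No other region lay within 30 kb of 91 regions of mid gastrula alone (5.04%) and 30 of early and mid gastrula (4.39%), against 220 of early gastrula alone (5.24%) and 2269 of all regions (2.74%). On scaffolds 120 and 127 a transient region was the only region, 1 of each group, and the distances of these 2 are missing.

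Peaks of the stages absent from a transient region lay within 500 bp of a smaller share of transient regions than of all regions. The nearest region with a late gastrula peak was a median of 3364 bp from regions of mid gastrula alone and 3247 bp from those of early and mid gastrula. It lay within 500 bp of 352 (19.5%, counted over 1805) and 135 (19.7%, over 684). The nearest region with an early blastula peak was farther, at medians of 6275 and 6228 bp, and within 500 bp of 227 (12.6%) and 91 (13.3%). Over all regions, not counting the region itself, the shares within 500 bp were 26.0% for late gastrula and 21.3% for early blastula. Regions of mid and late gastrula had another late gastrula region at a median of 1951 bp and within 500 bp in 23.6%, and an early blastula region within 500 bp in 12.1%. The late gastrula list is longer, which shortens distances to it. Around regions of mid gastrula alone an early gastrula region lay within 500 bp in 272 cases (15.1%), in a list of 48416 peaks.

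The nearest neighbour of a transient region was most often of the most abundant patterns, all 4 stages and late gastrula alone. For mid gastrula alone it was a region of all 4 stages in 25.2% of cases and of late gastrula alone in 22.7%. Those patterns form 29.1% and 18.7% of the other regions. For early and mid gastrula the shares were 26.6% and 19.3%. Regions of all 4 stages were thus below their proportion around both groups. Late gastrula alone was above its proportion around mid gastrula alone and near it around early and mid gastrula. Another region of mid gastrula alone was the nearest neighbour of a region of that pattern in 75 cases (4.16%, where the pattern forms 2.18% of other regions). Regions of the same pattern were also over this proportion around early gastrula alone (6.89% against 5.07%), mid and late gastrula (11.3% against 7.24%) and all 4 stages (36.6% against 29.1%). Within 200 bp, 39 regions of mid gastrula alone (2.16%, 1.58 to 2.94) and 13 of early and mid gastrula (1.90%, 1.11 to 3.22) had another transient region, against 0.525% of all regions (0.478 to 0.577). Such neighbours were thus rare in absolute terms.

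Transient peaks close to other regions were the faintest by enrichment. At 200 bp or less from another pattern, the 278 peaks of mid gastrula alone had a median enrichment percentile of 11.5 and a median width of 200 bp. At over 5000 bp, the 618 peaks had a median percentile of 45.0 and a median width of 266 bp. For early and mid gastrula the medians were 19.1 in the 99 closest peaks and 50.9 in the 218 farthest. By −log10 p the differences were smaller: 5.45 close and 14.9 far for mid gastrula alone, 13.8 and 23.3 for early and mid gastrula. By enrichment the closest class was also the faintest in regions of early, mid and late gastrula. In regions of mid and late gastrula and of all 4 stages it was not. The classes were 200 bp or less, up to 1000 bp, up to 5000 bp and over 5000 bp. From the closest to the farthest the medians were 31.4, 33.2, 41.2 and 67.3 for early, mid and late gastrula. They were 22.0, 20.8, 30.1 and 54.9 for mid and late gastrula, and 57.1, 50.7, 51.3 and 74.5 for all 4 stages. For the transient groups they were 11.5, 22.0, 29.9 and 45.0 for mid gastrula alone, and 19.1, 24.1, 36.7 and 50.9 for early and mid gastrula. The farthest class had the highest median in all of these patterns.

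**Figure D4:**
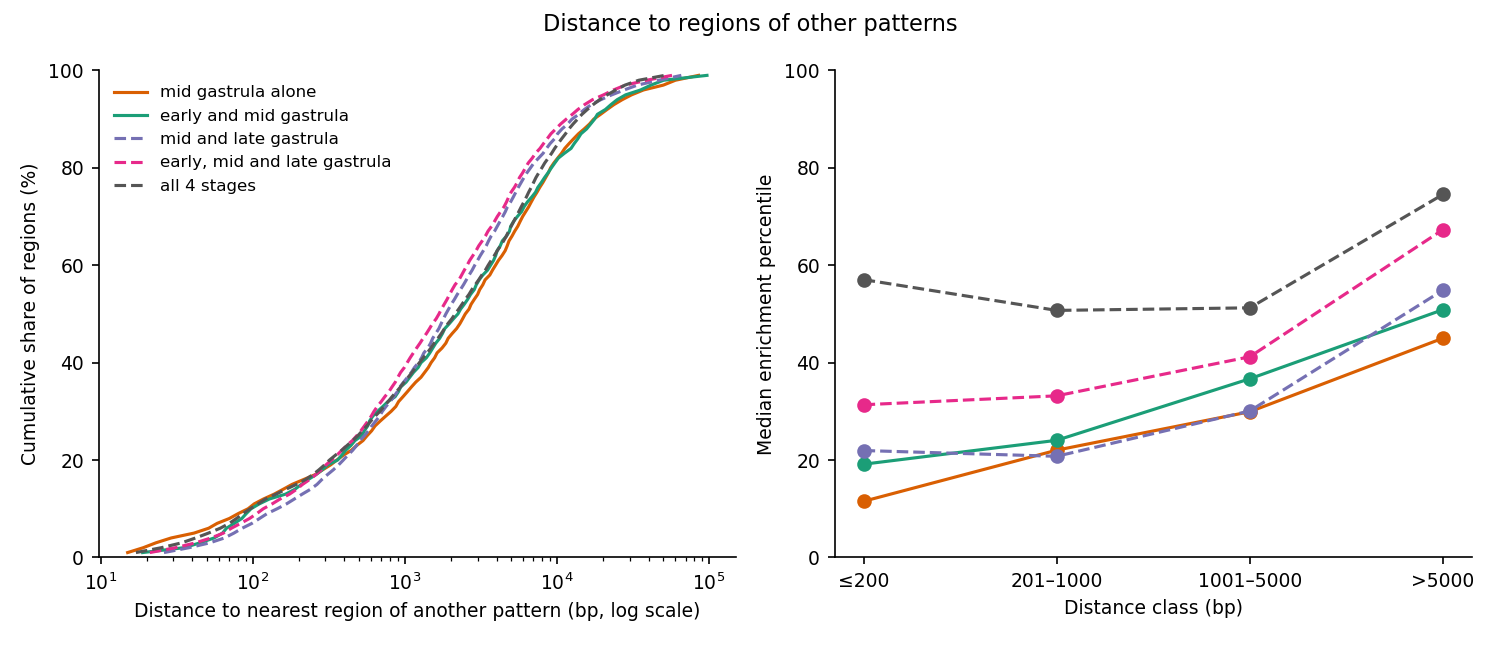
Left, cumulative share of regions (%) by distance in bp (log axis) to the nearest region of another pattern; right, median enrichment percentile of mid gastrula peaks in 4 distance classes; solid lines are transient patterns, dashed lines patterns with a late gastrula peak. The left curves have medians from 1673 bp for early, mid and late gastrula to 2492.5 bp for mid gastrula alone, and the right panel shows the lowest median, 11.5, for mid gastrula alone at 200 bp or less.

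Many isolated peaks, transient ones included, had enrichments from a small set of repeated values. The most frequent enrichments of the mid gastrula list were whole multiples of 0.366, and such values occurred in 454 of the 1805 peaks of mid gastrula alone (25.2%, 23.2 to 27.2) and 147 of the 687 of early and mid gastrula (21.4%, 18.5 to 24.6), against 13.2% for mid and late gastrula, 6.37% for all 4 stages (6.08 to 6.68) and 9.51% of the whole list (9.23 to 9.79). A value counted as a multiple when it was within 0.0005 of a step, which values spread evenly would meet in 0.1% of cases. Among transient peaks over 5000 bp from another pattern the shares were 50.8% for mid gastrula alone and 44.5% for early and mid gastrula, against 10.8% and 7.07% at 200 bp or less. Isolated peaks of other patterns carried such values about as often or less: 52.9% in regions of early blastula and mid gastrula, 49.1% of early blastula, early and mid gastrula, 36.7% of mid and late gastrula, 14.1% of all 4 stages and 22.7% in the whole list. No source used here gives the settings behind the deposited enrichment.

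Few regions lay within 10 bp of the border of the overlap rule, and more within 100 bp. An early blastula or late gastrula peak came within 100 bp of 186 of the 1805 regions of mid gastrula alone and 59 of the 684 of early and mid gastrula. No share over other patterns is set beside these counts, so they show neither an excess nor a lack. Within 50 bp the counts were 100 and 19. Such a peak came within 10 bp of 7 transient regions, 6 of mid gastrula alone and 1 of early and mid gastrula. The 7 mid gastrula peaks had enrichment percentiles from 0.170 to 3.49 and a median width of 148 bp. Just outside, 2 mid gastrula peaks overlapped such a peak by no more than 10 bp, with enrichment percentiles of 0.343 and 1.49. Another 29 mid gastrula peaks touched no early blastula or late gastrula peak themselves and were left out because an early gastrula peak joined them to one.

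Among the large scaffolds, transient regions were spread with the other mid gastrula regions. On the 27 scaffolds of at least 10 Mb, which held 2425 of the 2489, they made up 5.89% of the mid gastrula regions, from 4.71% on scaffold 26 (8 of 170, 2.40 to 9.01) to 8.02% on scaffold 27 (17 of 212, 5.07 to 12.5). The Wilson interval of each of the 27 scaffolds included the joint share. The density ranged from 0.572 transient regions per Mb on scaffold 26 to 3.17 on scaffold 21. Mid gastrula alone outnumbered early and mid gastrula on 26 of the 27, the exception being scaffold 27 with 8 and 9. On smaller scaffolds the share was higher: 64 transient regions made up 8.83% of 725 mid gastrula regions.

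**Figure D5:**
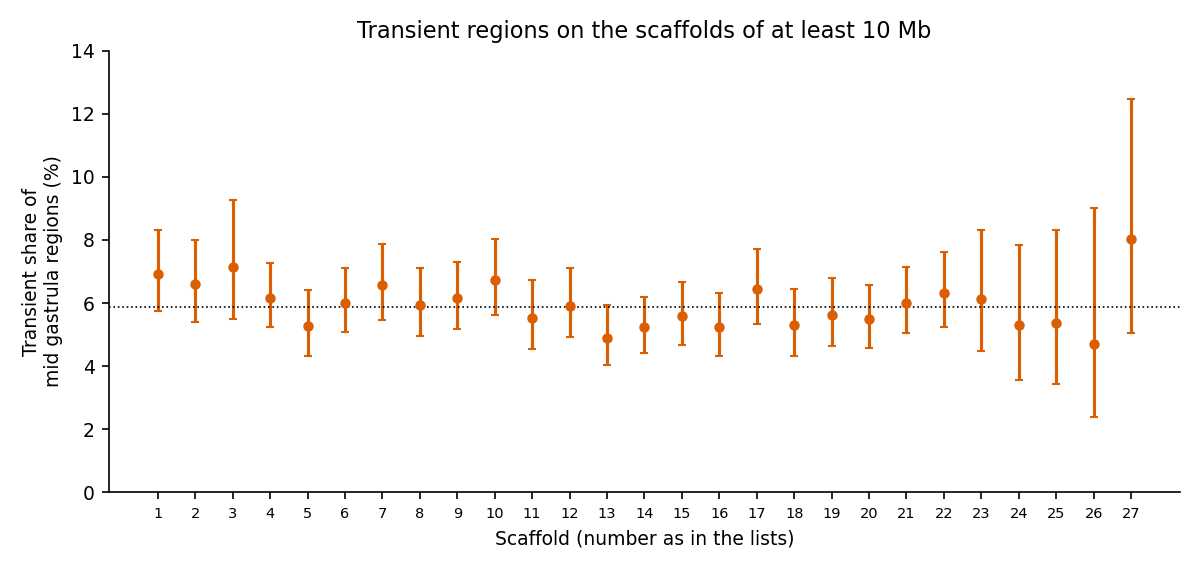
Transient regions as a share of all mid gastrula regions (vertical axis, %) on each of the 27 scaffolds of at least 10 Mb (horizontal axis), with Wilson 95% intervals; the dotted line is the joint share of 5.89%. Every interval includes the line.

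The 5 regions of mid gastrula alone with the highest enrichment had enrichment percentiles between 97.9 and 99.04, and 4 of them had scores between 471 and 656. The first was on scaffold 21 at 17888486 to 17888851, with an enrichment of 20.1 (percentile 99.04), a −log10 p of 65.0 and a score of 553, an IDR of 0.0465. Its nearest region, 8351 bp away, was another region of mid gastrula alone at 17897202 to 17897394 with an enrichment of 10.3. The second, on scaffold 2 at 48371384 to 48371647 (enrichment 19.8, score 512), had its nearest region 26115 bp away, a region of all 4 stages whose mid gastrula peak had an enrichment of 12.7. The third, on scaffold 16 at 7896260 to 7896633 (enrichment 19.6, score 471, IDR 0.0733), was 33749 bp from a region of mid and late gastrula with a mid gastrula enrichment of 8.06. The fourth was on scaffold 1 at 39700798 to 39701161, with an enrichment of 18.9 and a score of 656, and a region of late gastrula alone lay 1976 bp away. The fifth, on scaffold 17 at 36508332 to 36508713, was the one with the maximum score, at an enrichment of 18.3.

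The 5 leading regions of early and mid gastrula were chosen by their mid gastrula peak, so their higher rank at mid than at early gastrula is no result. The first was on scaffold 16 at 32344006 to 32344458, with an enrichment of 18.5 and a score of 1000 at mid gastrula, and 9.80 and 549 at early gastrula. On scaffold 19 at 6120565 to 6121209 the enrichment was 17.8 at mid gastrula (score 610) and 16.2 at early gastrula (score 1000), and the nearest region was 120150 bp away. On scaffold 28 at 1223079 to 1223435 it was 17.8 at mid gastrula (score 715) and 10.7 at early gastrula (score 816), with the nearest region 59868 bp away. On scaffold 2 at 23758782 to 23759076 it was 17.6 (score 1000) at mid gastrula and 11.7 (score 795) at early gastrula. On scaffold 5 at 4495162 to 4495736 it was 17.6 (score 961) at mid gastrula and 16.2 (score 535) at early gastrula. The early gastrula score was thus under 600 in 2 of the 5 and 1000 in 1. The mid gastrula peaks nearest to the first 3 had enrichments of 7.76, 8.79 and 10.99 and lay 20608, 120150 and 156092 bp away.

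The transient peaks next to the threshold varied in enrichment. Their enrichment percentiles ran from 1.70 (scaffold 8) to 45.0 for mid gastrula alone and from 20.5 to 48.6 for early and mid gastrula. The 3 of mid gastrula alone with the highest IDR, on scaffold 4 at 23049613 to 23049890, scaffold 15 at 12398978 to 12399204 and scaffold 8 at 36820999 to 36821157, had a score of 415 each and enrichments of 6.76, 8.06 and 3.66. Those of early and mid gastrula, on scaffold 9 at 22898235 to 22898679, scaffold 6 at 44727954 to 44728130 and scaffold 5 at 4812631 to 4812874, had scores of 415, 416 and 416 and enrichments of 6.23, 7.91 and 8.36 at mid gastrula. Their early gastrula scores were 735, 421 and 559.

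The most isolated transient regions stood over 200 kb from any other. For mid gastrula alone these were on scaffold 23 at 7364837 to 7365077, 356951 bp from the next region, on scaffold 10 at 14400828 to 14401045 (220962 bp) and on scaffold 32 at 1115347 to 1115528 (207611 bp). Their enrichments were 8.06, 8.06 and 7.69, all among the repeated values. For early and mid gastrula the most isolated was on scaffold 61 at 127789 to 128196, 392298 bp from the next, with an enrichment of 16.8 and a score of 533 at mid gastrula and 16.1 and 974 at early gastrula. The next were on scaffold 29 at 2887996 to 2888226 (331010 bp, enrichment 9.16 at mid and 8.96 at early gastrula) and on scaffold 3 at 24648520 to 24648959 (228050 bp, 7.33 at mid and 11.6 at early gastrula). The mid gastrula enrichments of 9.16 and 7.33 were also among the repeated values.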

How the data were processed

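Per the labels' protocols, jelly coats were removed, cells lysed and DNA transposed with Tn5 before PCR. MACS2, Bowtie2 and bedtools appear in the submitters' processing notes, with no version or role. No source used here gives the build, read shifting, duplicate handling, calling settings or pooling. Per stage the authors deposited a single list of IDR peaks, 12 columns in the layout of the IDR tool: a score of at most 1000, an enrichment as a fold ratio over background, −log10 p, a summit offset and −log10 IDR. The highest IDR was 0.1.

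Starts were converted to 1-based positions. Percentiles were ranks within a list, ties averaged. With an IDR limit in all lists or with equal list lengths, they were ranked anew in the shortened lists. Distances are between edges, adjacent bases counting as 1. Wilson 95% intervals cover counting error of peaks only. The merging, patterns and distances were checked on 2000 simulated regions, and 100% of the patterns were recovered. The tools were Matplotlib 3.10.9, SciPy 1.17.1, NumPy 2.4.6, pandas 2.3.3 and Python 3.11.15. Members, measures and the comparison patterns were chosen with earlier results of these data known. The score at matched significance, the repeated values and the distance classes were added after the values were seen. Named regions were, per group, the 5 with the highest mid gastrula enrichment percentile, the 3 with the highest IDR and the 3 farthest from any other region, plus the mid gastrula peaks nearest to the top 3.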

Additional observations from a re-analysis of the deposited data

How the results depend on the processing

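No paired analysis was possible because the lists hold no values per replicate, and for the same reason no replicate could be left out. Of 56 values under alternatives 26 stayed within the 95% interval of the median or share (for counts, within 1.5 times) and 30 moved. In each pair below mid gastrula alone comes before early and mid gastrula, and the cause was not tested beyond what the setting itself does. The counts of 1805 and 684 became 1068 and 437 with an IDR of at most 0.05 in all lists, 450 and 282 at 0.01, 3873 and 1393 at equal list lengths, and 75 and 49 with 0.01 for mid gastrula alone. The median percentiles of 33.3 and 38.9 became 11.8 and 17.3 by score, 11.5 and 21.0 by −log10 p, 30.4 and 35.1 at equal lengths, 36.7 and 43.4 when peaks up to 500 bp apart were joined, and 35.5 and 41.4 without members within 200 bp of another pattern; with an IDR of at most 0.05 the first became 37.3. The median widths of 242 and 262 bp became 258 and 283 bp at that IDR, the first 251 bp with joining over 500 bp and 249 bp without close members, the second 298.5 bp for the merged region. The median distances of 2492.5 and 2229 bp became 3195 and 2916 bp with joining over 100 bp; the first was 2993 bp at an IDR of at most 0.05 and 2793 bp between summits. The shares with the maximum score, 3.81% and 16.3%, became 0.719% and 6.22% in the upper 50% by enrichment. The settings for close members and for the score shares were chosen after seeing the data. Depth is unknown and limits what absence from a list can show.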
